A study of Nothobranchius furzeri with 15 samples.

Results

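The 100 genes that took the most sequencing counts in solvent-treated killifish skin were followed from the solvent control to a pair of rotenone doses. They were chosen from 26739 annotated genes as those with the highest mean CPM (counts of a gene relative to its library's total, scaled for composition between libraries) over the 5 control samples. The choice used the control values themselves, so the control levels and every difference from the control are a description, and counts of calls against the control are printed beside the background with nothing read from them. The fold change between the 2 rotenone doses compares no control level. The control samples still share in the scaling of the libraries and in the estimate of spread behind its test.

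All samples were skin of male Nothobranchius furzeri of the GRZ strain, an inbred and very short-lived annual fish, at 9 weeks of age. The solvent group received DMSO, and the other two groups received rotenone at 15 pM or at 150 pM, with 5 samples each. All 15 samples share the strain, sex, age and tissue, and the labels state neither how long the treatment lasted nor whether each sample came from a separate fish. Every p-value below is thus set against sample-to-sample spread alone, part of which could be technical.

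Fish skin is an epidermis of living cells with mucus-secreting cells over a collagen-rich dermis that carries scales and pigment cells, and skeletal muscle lies directly beneath it. Rotenone blocks complex I of the mitochondrial respiratory chain. Sequencing divides a fixed number of reads among all transcripts, so a few very abundant transcripts set how many reads remain for all others, and a gene that takes a larger share lowers the share of the rest. The identifiers of the count table were paired with names in none of the annotation used here: 0 of 26739 matched the RefSeq gene table of this species. The members are therefore given by identifier, without function or sequence, and the skin label could not be checked against marker genes.

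Library totals ranged from 21857670 to 28314659 counts, and each member had at least 263 counts in every sample. All 100 members passed the filter on low counts, beside 18253 genes tested in all. The libraries were unlike within the 15 pM group: replicates 1 and 4 stood apart from replicates 2, 3 and 5 in their shares of counts. Several values are also given without them. They were picked for standing apart in these data, so a smaller spread without them is favoured by the choice, and nothing is read from it.

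The members took close to the same share of counts in the DMSO and 150 pM groups, and a far more variable share at 15 pM. In the DMSO samples they took 44.6%, 46.6%, 42.8%, 44.6% and 37.8% of all counts, a mean of 43.3% ± 3.33 (SD, n = 5). In the 15 pM samples they took 32.4%, 42.1%, 48.2%, 25.6% and 46.9%, a mean of 39.0% ± 9.74 (SD, n = 5). In the 150 pM samples they took 39.6%, 42.9%, 47.4%, 42.2% and 44.4%, a mean of 43.3% ± 2.87 (SD, n = 5). Only replicates 1 and 4 of the 15 pM group lay below all DMSO samples, and the other 3 samples of that group averaged 45.7% ± 3.22 (SD, n = 3). The 95% Wilson intervals reached at most 0.020 percentage points to either side and cover counting error only. In whole skin, fewer cells of a type and less RNA per cell cannot be told apart behind any such share.

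**Figure D1:**
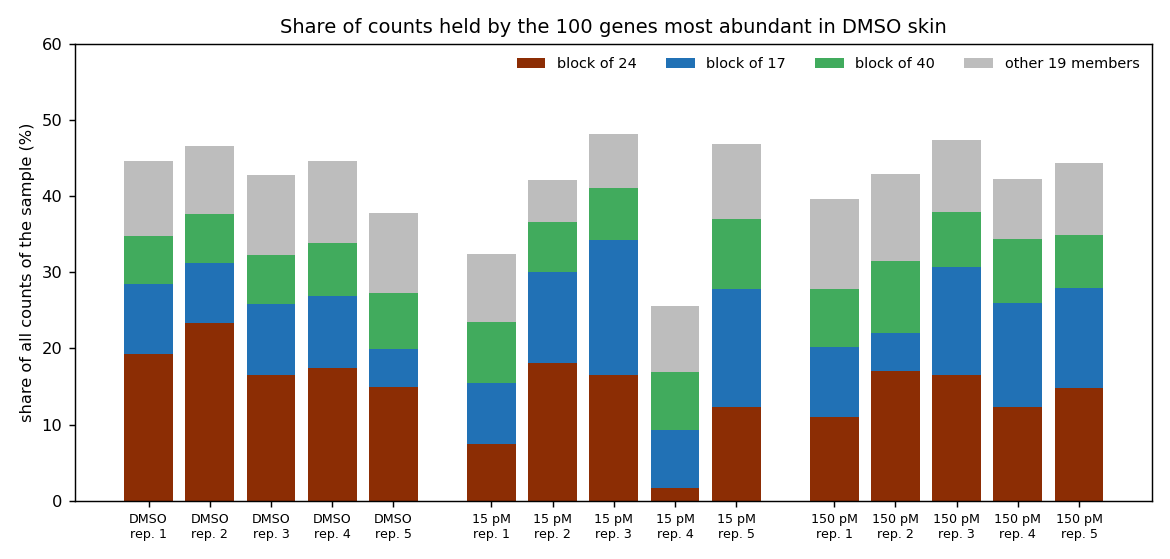
Stacked bars of the share of all counts (percent, from 0) held by the 100 members in each of the 15 samples, split into the 3 sets of co-varying members described below and the other 19 members. The 15 pM bars run from 25.6% to 48.2% in height, and the set of 24 shrinks to 1.70% in replicate 4 of that group.

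The leading genes and the lower ranks were unlike in how much their share moved. The 3 leading genes took 12.9% ± 1.65 of the counts in DMSO, 7.30% ± 3.76 at 15 pM and 10.1% ± 1.59 at 150 pM (SD, n = 5 each), and 9.87% ± 1.36 at 15 pM without replicates 1 and 4 (SD, n = 3). Members at ranks 51 to 100 took 6.83% ± 0.151 in DMSO, 7.30% ± 0.888 at 15 pM and 7.68% ± 0.412 at 150 pM (SD, n = 5 each). The standard deviations of the 3 leading genes' share were larger than those of ranks 51 to 100 in each group. The second share sums many more genes, whose movements can cancel, and had the smaller mean in DMSO and at 150 pM. The standard deviations are therefore not like for like. At both doses the mean share of the 3 leading genes lay below DMSO and that of ranks 51 to 100 above it.

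Concentration of the reads was also measured free of the choice, from each sample's own 100 most abundant genes. These took 43.8% ± 3.04 in DMSO, 40.6% ± 8.95 at 15 pM and 43.9% ± 2.98 at 150 pM (SD, n = 5 each). No pair of groups differed in an exact two-sided permutation test, where the smallest possible p is 0.00794. The p was 0.452 for 15 pM against DMSO, 0.944 for 150 pM against DMSO and 0.429 for 150 pM against 15 pM, or 0.679, 0.944 and 0.679 after adjustment over the 3 comparisons. Without replicates 1 and 4 the sign of both differences that involve 15 pM turned: 15 pM was 3.05 percentage points above DMSO (exact p = 0.250). These replicates had the lowest shares of their group, 33.2% and 29.3%, so leaving them out had to raise the 15 pM mean. Nothing is read from that p. The number of genes that made up 50% of the counts was 161, 136, 170, 159 and 263 in the DMSO samples. It was 343, 177, 107, 447 and 115 in the 15 pM samples and 227, 156, 117, 176 and 156 in the 150 pM samples. Both the most and the least concentrated libraries of the series were thus 15 pM samples.

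Nfu_g_1_023149 took the most counts of any gene in all 5 DMSO samples. Its level was 50444, 64618, 44325, 44368 and 35124 CPM in DMSO. At 15 pM it was 10460, 46930, 46815, 1233 and 34441 CPM, and at 150 pM it was 22661, 45871, 48775, 27491 and 38528 CPM. Replicate 4 of the 15 pM group was far below all other samples and replicate 1 was the next lowest, while the remaining samples of the 3 groups overlapped. The gene ranked first in 9 of the 15 samples and 74th in replicate 4 of the 15 pM group. Between the doses its log2 fold change was 0.39 (SE 0.62) and did not pass the test (edgeR's quasi-likelihood test, adjusted p = 0.739). It turned to -0.23 without replicates 1 and 4 of the 15 pM group (adjusted p = 0.627).

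Nfu_g_1_018490 and Nfu_g_1_013298, at ranks 2 and 4, moved with it. Nfu_g_1_018490 stood at 45346, 59567, 40913, 39954 and 29727 CPM in DMSO and at 9233, 43428, 43867, 2069 and 31026 CPM at 15 pM. The ratio of their counts, Nfu_g_1_013298 over Nfu_g_1_018490, stayed between 0.778 and 0.802 in DMSO and between 0.763 and 0.809 at 150 pM. At 15 pM it ranged from 0.558 to 0.800, with the lowest value in replicate 4. The ratio of Nfu_g_1_023149 to Nfu_g_1_018490 was likewise narrow in DMSO, at 1.08 to 1.18, and at 150 pM, at 1.10 to 1.17, and was 0.596 in that same replicate. Outside that library the 3 genes held close to constant proportions while their levels differed severalfold between samples. Between the doses the log2 fold changes of Nfu_g_1_018490 and Nfu_g_1_013298 were 0.31 and 0.33, and turned to -0.30 and -0.29 without replicates 1 and 4 of the 15 pM group.

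Nfu_g_1_001437, at rank 3, did not keep that proportion. Its level was 37083, 33373, 43034, 39745 and 30286 CPM in DMSO, 19173, 17966, 29677, 15334 and 36028 CPM at 15 pM, and 44521, 36573, 36984, 24601 and 33151 CPM at 150 pM. Replicates 1, 2 and 4 of the 15 pM group were below every DMSO and 150 pM sample. Replicate 3 was below every DMSO sample and above only the lowest 150 pM one, while replicate 5 lay within the range of both other groups. Its counts over those of Nfu_g_1_018490 ranged from 0.560 to 1.05 in DMSO, from 0.414 to 7.41 at 15 pM and from 0.875 to 2.16 at 150 pM. The log2 fold change between doses was 0.57 (SE 0.25), which did not pass adjustment (edgeR's quasi-likelihood test, adjusted p = 0.193).

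Nfu_g_1_002091, at rank 5, had the opposite order of group means to the genes above. It stood at 23595, 21346, 26017, 25529 and 11728 CPM in DMSO and at 14323, 36312, 54198, 10877 and 50257 CPM at 15 pM. At 150 pM it stood at 22323, 15743, 44095, 33784 and 36569 CPM. It led replicates 3 and 5 of the 15 pM group and replicate 4 of the 150 pM group, while replicate 4 of the 15 pM group was below every DMSO sample and replicate 1 was above only the lowest of them. Its log2 fold change between doses was -0.12 (SE 0.43; edgeR's quasi-likelihood test, adjusted p = 0.888).

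The genes at ranks 6 to 10 are given by their group means. Nfu_g_1_022498 averaged 12997 CPM in DMSO, 6224 at 15 pM and 11394 at 150 pM, with standard deviations of 4392, 4110 and 4382 (n = 5 each). Nfu_g_1_019825 averaged 12252, 14244 and 15199 CPM and had the smallest DMSO coefficient of variation of the 10 leading genes, 7.45%. Nfu_g_1_014183 averaged 9797, 7579 and 9714 CPM. Nfu_g_1_022849 averaged 9458 CPM in DMSO, 17219 at 15 pM and 12996 at 150 pM. Its 5 values at 15 pM, from 13293 to 22946 CPM, lay above all 5 DMSO values, from 5522 to 11906 CPM. Such a gap held for 2.95% of tested genes. The adjusted p of Nfu_g_1_022849 at 15 pM against DMSO was 0.105 (edgeR's quasi-likelihood test), and the DMSO values had chosen the gene. Nfu_g_1_007569 averaged 8982, 14069 and 12495 CPM, with overlapping groups.

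**Figure D2:**
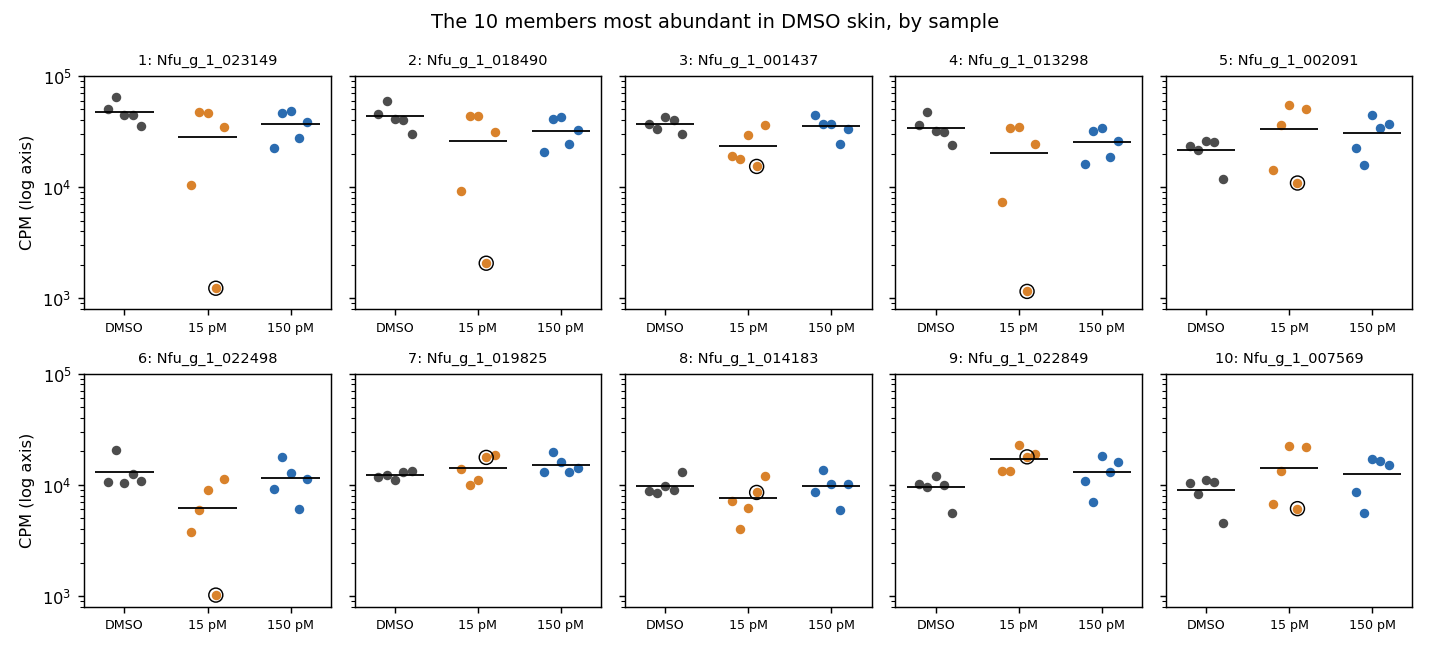
CPM on a log axis of the 10 leading genes in the 15 samples, with points for samples, a horizontal line for each group's mean and a circle around replicate 4 of the 15 pM group. That replicate reads 1233 CPM for Nfu_g_1_023149, against 35124 to 64618 CPM in DMSO.

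The order of the members was largely kept at both doses. Of the 100 genes that lead in each group, 88 were shared between DMSO and 15 pM, 93 between DMSO and 150 pM, and 87 by all 3 groups. The 10 leading genes were the same at 150 pM as in DMSO, and 8 of 10 were the same at 15 pM. By group mean, 65 members stayed within 10 ranks of their DMSO place at 15 pM and 73 at 150 pM, with a median shift of 7 and 5 ranks.

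Single libraries were less alike than the group means. The rank correlation of the 100 members with the DMSO order, each DMSO sample being left out of its own reference, was 0.922, 0.949, 0.915, 0.970 and 0.798 in DMSO. It was 0.756, 0.852, 0.851, 0.513 and 0.829 at 15 pM, and 0.909, 0.743, 0.900, 0.892 and 0.923 at 150 pM. These are correlations across genes, which are not independent replicates. Replicate 4 of the 15 pM group was the farthest from the DMSO order, and its own 100 leading genes held 71 of the members, against 84 to 87 in the other 15 pM samples and 88 to 97 in DMSO.

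Reads per gene grow with transcript length, so the order by CPM is an order of counts, not of molecules. Lengths recovered from the deposited RPKM values had a median of 2405.5 bases for the members, from 330 to 88546, and 2723 bases for the tested genes. Ranked per length, 55 of the members were among the 100 leading genes in DMSO. At the head the lists were closer, with 18 of the 20 leading genes per length being members. One member was as low as rank 2142 per length. Per length, the members' rank correlation with the DMSO order averaged 0.953 in DMSO, 0.894 at 15 pM and 0.946 at 150 pM. By CPM the means were 0.911, 0.760 and 0.873. Replicate 4 of the 15 pM group was again the lowest, at 0.765. The same lengths divide every sample, so the correlations per length and by CPM are not like for like.

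The members formed a few sets whose levels varied together from sample to sample. Clustering by the correlation of log2 CPM over all 15 samples, with a distance limit of 0.4, gave 3 sets of 40, 24 and 17 members and 19 members outside them. The 3 largest sets depended on that limit. They held 36, 17 and 17 members at 0.3, 40, 24 and 18 at 0.5, and 46, 29 and 18 at 0.6. The sets were found in the values they describe, so no test is attached to them. The genes of a library also share one pool of reads, so their levels are not independent of each other. What links the members of a set was not tested.

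The set of 40 held no gene of the 20 leading ones and 26 members of ranks 51 to 100, with a median length of 1432 bases. In CPM, which are scaled for composition between libraries, it was very even in DMSO. Its median coefficient of variation there was 4.08%, against 29.2% at 15 pM and 15.0% at 150 pM. Its share of counts was 6.22%, 6.37%, 6.41%, 6.96% and 7.45% in the DMSO samples. It was 8.01%, 6.61%, 6.85%, 7.63% and 9.23% at 15 pM and 7.73%, 9.44%, 7.27%, 8.48% and 6.95% at 150 pM. Replicate 5 of the 15 pM group was the highest of its group for 39 of the 40 genes, and replicate 2 of the 150 pM group for 37. The median pairwise correlation was 0.94 over 15 samples, and the lowest was 0.16. Nfu_g_1_009939 belongs here and was the steadiest member in DMSO, at 1111, 1117, 1125, 1165 and 1155 CPM. All 5 of its 150 pM values, 1284, 1742, 1438, 1468 and 1253 CPM, were above those. Such a gap held for 3.54% of tested genes and is favoured by choosing a gene for its even DMSO values. Its adjusted p at 150 pM against DMSO was 0.319 (edgeR's quasi-likelihood test).

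The set of 24 held the genes at ranks 1, 2, 4 and 6 and 8 of the 20 leading genes, and its transcripts were long, with a median of 4774.5 bases. Its share of counts was 19.3%, 23.4%, 16.5%, 17.5% and 14.9% in DMSO and 10.9%, 17.1%, 16.5%, 12.4% and 14.8% at 150 pM. At 15 pM it was 7.44%, 18.1%, 16.5%, 1.70% and 12.3%. The lowest of its group was replicate 5 of DMSO for 23 of the 24 genes and replicate 1 of the 150 pM group for 19. Replicate 4 of the 15 pM group was the lowest of its group for 23. Forming a set by co-variation favours such counts. In that replicate of the 15 pM group, 21 of the 24 genes were below 50% of their DMSO mean. In replicate 1 of that group the same held for 11 genes. The median coefficient of variation at 15 pM was 56.6% over 5 samples, against 21.7% in DMSO. It was 16.0% over the 3 samples left without 15 pM replicates 1 and 4, which held the lowest shares of this set in their group. Leaving them out favours a smaller value, so nothing is read from it. Nfu_g_1_013186, the most variable member at 15 pM, belongs to this set and stood at 243, 2150, 1818, 53.8 and 1042 CPM there.

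The set of 17 held the genes at ranks 5, 9 and 10 and 6 of the 20 leading genes. Its share of counts was 9.22%, 7.89%, 9.37%, 9.43% and 4.99% in DMSO. It was 8.01%, 12.002%, 17.7%, 7.65% and 15.5% at 15 pM and 9.20%, 4.97%, 14.2%, 13.5% and 13.2% at 150 pM. Replicate 5 was the lowest DMSO sample for all 17 genes and replicate 2 the lowest 150 pM sample for 16 of them. The 5 highest shares of the series were those of replicates 3 and 5 of the 15 pM group and replicates 3, 4 and 5 of the 150 pM group, and the 3 groups overlapped.

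**Figure D3:**
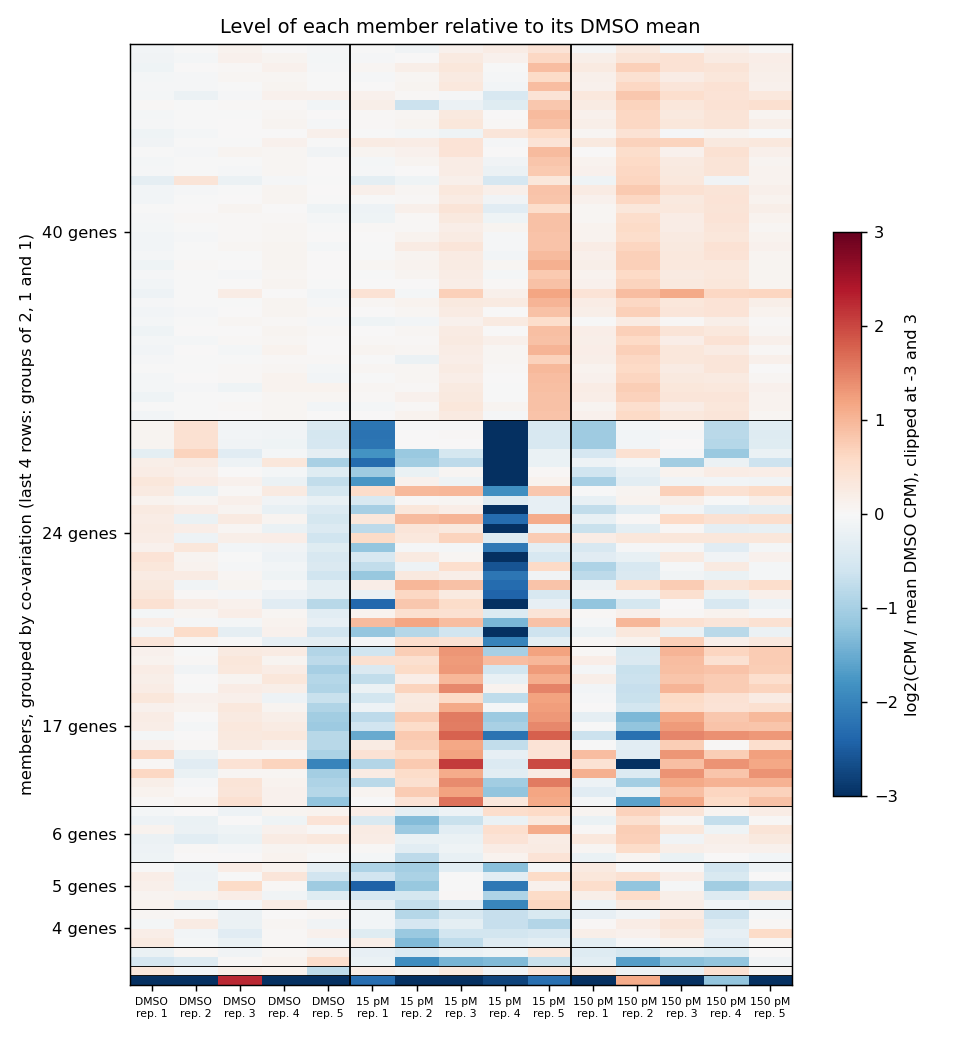
Level of each of the 100 members (rows, grouped by the clusters) in the 15 samples (columns) as log2 of its CPM over its mean DMSO CPM, with the colour scale clipped at 3 in either direction. The dark area in replicate 4 of the 15 pM group lies in the set of 24 genes, whose share there was 1.70%, and the last line of the map is Nfu_g_1_014314.

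With the main scaling, most members were more variable between samples at both doses than in DMSO. The median coefficient of variation of a member was 12.54% in DMSO, 34.5% at 15 pM and 18.4% at 150 pM, beside 15.5%, 31.4% and 18.1% for all tested genes. With libraries scaled by their total alone the members' medians were 13.6%, 29.1% and 16.15%. The gap between 150 pM and DMSO was then smaller. The coefficient was larger at 15 pM than in DMSO for 94 of 100 members and for 81.1% of tested genes. At 150 pM it was larger than in DMSO for 84 members and for 57.3% of tested genes. Because the members were chosen on DMSO values, these counts are given beside the background without a test. Without replicates 1 and 4 the 15 pM median was 29.1%, against 23.3% for the tested genes, and 73 members were more variable than in DMSO, beside 64.4% of tested genes. Leaving out 1 sample of the group gave members' medians of 8.66% to 14.4% in DMSO and 26.2% to 36.7% at 15 pM. At 150 pM it gave 15.0% to 19.5%, the lowest being without replicate 2. Counting error was small beside these values, at most 1.58% for any member and group. It is larger for tested genes with few counts, which adds to the background coefficients.

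In DMSO, 44 members had a coefficient of variation below 10% and 2 had one above 50%. At 15 pM 0 members were below 10% and 30 were above 50%, and at 150 pM 8 were below and 8 above. At 15 pM without replicates 1 and 4, 9 members were below 10% and 5 above 50%. Among tested genes the share below 10% was 28.1% in DMSO, 4.06% at 15 pM and 18.1% at 150 pM, and the share above 50% was 10.97%, 22.1% and 8.86%. For 15 pM without replicates 1 and 4 these shares were 15.9% below 10% and 14.9% above 50%. The 8 members above 50% at 150 pM were thus near that share of tested genes. The tested genes include genes with far fewer counts, whose coefficients hold more counting error. The shares of members and of tested genes are therefore not like for like.

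**Figure D4:**
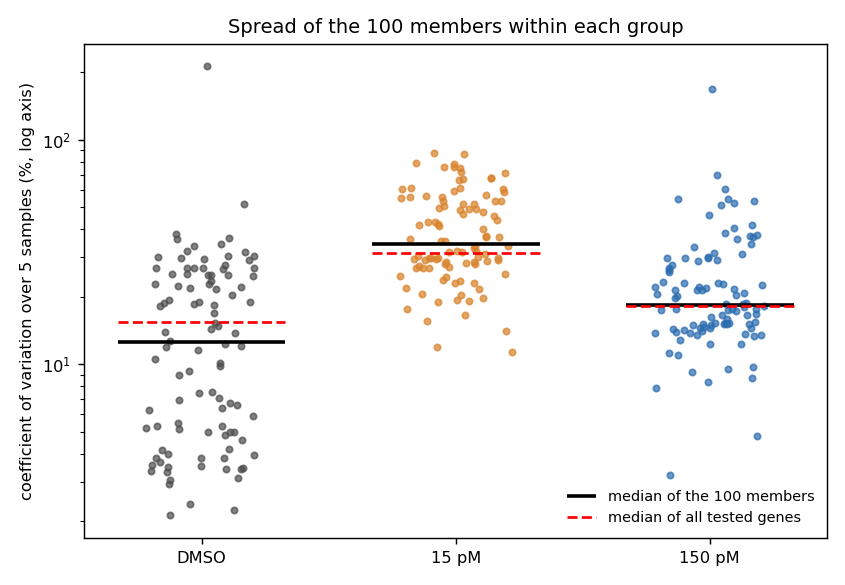
Coefficient of variation (percent, log axis) of each member over the 5 samples of each group, with solid lines for the members' median and dashed lines for the median of all tested genes. The members' median is 12.54% in DMSO, 34.5% at 15 pM and 18.4% at 150 pM.

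The place of Nfu_g_1_014314, at rank 88, rested on a single DMSO library, and leaving out any 1 DMSO sample kept 96 to 99 of the 100 members. It stood at 23.9, 48.4, 5435, 89.5 and 68.8 CPM in DMSO. At 15 pM it stood at 231, 131, 69.2, 165 and 237 CPM, and at 150 pM at 10.2, 2456, 66.1, 497 and 68.6 CPM. Replicate 3 of DMSO and replicate 2 of the 150 pM group were far above all other samples, and its coefficient of variation was 212% in DMSO and 169% at 150 pM. At the edge of the list, the last member averaged 1024 CPM in DMSO and the next gene 1016 CPM, with standard deviations of 186 and 49.4 (n = 5 each).

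Between 150 pM and 15 pM, 1 of 100 members passed the test at an adjusted p of 0.05, beside 1.7% of all tested genes. It was higher at 150 pM, as were 0.8% of tested genes, and 0 members were called lower, beside 0.898%. At an unadjusted p under 0.05 there were 4 members, beside 22.7% of tested genes. The median log2 fold change was 0.05 over the members and -0.03 over the tested genes, and 63 members were above 0, beside 46.5% of tested genes. Without replicates 1 and 4 of the 15 pM group the members' median of log2 ratios of mean CPM turned to -0.12, and 29 members were above 0, beside 49.3% of tested genes. With libraries scaled by their total alone and the same samples left out, it was 0.03, beside 0.12 for the tested genes. Of the members, 1 had a log2 fold change above 1 in size (Nfu_g_1_014314, 1.89 with SE 1.505, and -0.06 without replicate 2 of the 150 pM group), beside 7.53% of tested genes. The share of members called was thus near the background.

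The member that passed was Nfu_g_1_022922, at rank 68. It stood at 1786, 1464, 1225, 1588 and 1684 CPM in DMSO, at 1200, 722, 1055, 1062 and 1114 CPM at 15 pM and at 1757, 1692, 1892, 1298 and 2294 CPM at 150 pM. All 150 pM samples were above all 15 pM samples, which holds for 1 member and for 2.92% of tested genes, and 0 members had all 150 pM samples below, beside 2.49%. In either direction the groups did not overlap for 5.41% of tested genes. It rose by 0.79 on the log2 scale (SE 0.18) from 15 pM to 150 pM (edgeR's quasi-likelihood test, adjusted p = 0.0409). The call was lost when the DMSO samples were left out of the fit, and in all under 12 of 23 alternative analyses, with adjusted p from 0.000741 to 0.111 and a log2 fold change from 0.67 to 0.90. Its level at 150 pM overlapped that of DMSO.

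**Figure D5:**
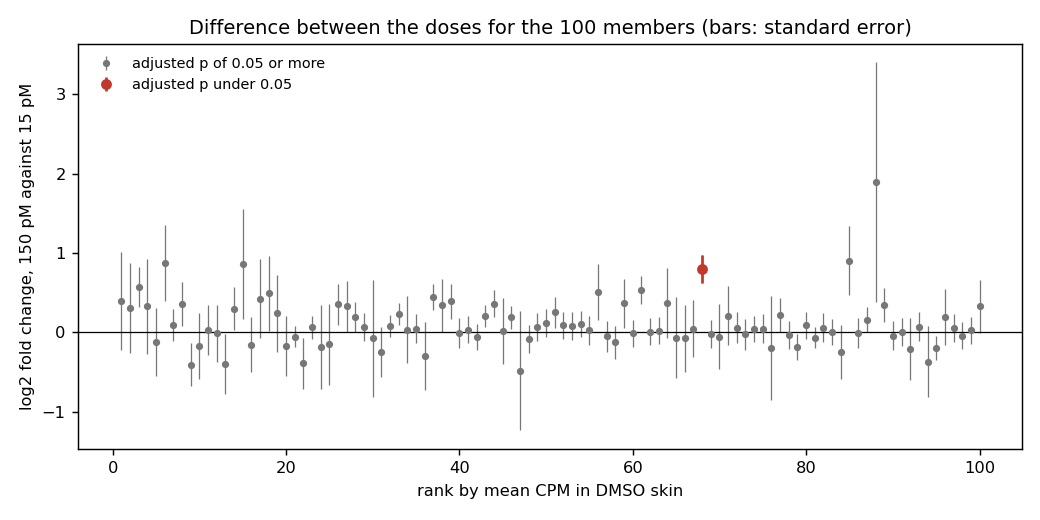
Log2 fold change of each member at 150 pM against 15 pM, with bars for the standard error, against its rank by mean CPM in DMSO. The red point, Nfu_g_1_022922 at 0.79, is the member that passed the test at an adjusted p of 0.05.

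Against DMSO, which chose the members, the same edgeR fit called 0 members at 15 pM, beside 1.75% of tested genes, of which 1.07% were higher and 0.679% lower. At 150 pM it called 0 members, beside 0.104% of tested genes, of which 0.0603% were higher and 0.0438% lower. The 15 pM samples shared in the estimate of spread behind these calls. With only DMSO and 150 pM in the fit, 2 members were called, beside 2.58% of tested genes. Without replicate 4 of the 15 pM group 0 members were called, beside 1.85%. Nothing is read from these counts, since the choice used the DMSO values. At an unadjusted p under 0.05 edgeR's fit of all 15 samples gave 13 members at 15 pM, beside 21.4% of tested genes. It gave 9 at 150 pM, beside 15.1%. The DESeq2 Wald test called 3 members in each of these comparisons, beside 8.34% of tested genes at 15 pM and 3.48% at 150 pM. The median log2 difference of the set of 24 at 15 pM was -0.31 with all samples and 0.12 without replicates 1 and 4, or -0.04 without them when libraries were scaled by their total alone.

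At 150 pM, 28 members had all 5 values above all 5 DMSO values and 0 had all below. Among tested genes 7.96% did not overlap, 3.54% upward and 4.42% downward. Of these, 27 belonged to the set of 40. At 15 pM the groups did not overlap for 2 members, beside 6.15% of tested genes: 1 was higher, beside 2.95%, and 1 was lower, beside 3.19%. Without replicates 1 and 4, which leaves 3 samples at 15 pM, 33 members were higher, beside 8.44% of tested genes, and 5 were lower, beside 8.04%. Scaled by total alone, these were 19 members, beside 4.11%, and 8 members, beside 16.2%. Both rotenone groups are set against the same DMSO samples, and these were very even in CPM for the set of 40. The count at 150 pM depended on scaling: it was 26 with DESeq2 size factors, 24 with factors from all deposited rows, 31 with factors from genes outside the list, and 5 when libraries were scaled by their total alone. The tested genes without overlap upward were 3.51%, 3.25%, 3.73% and 1.90% under these scalings, in the same order. The median log2 difference from DMSO was 0.28 over the members and 0.00 over the tested genes at 150 pM, and 0.25 and 0.00 at 15 pM. The scaling itself holds the tested genes near 0. With totals alone the medians were 0.22 and -0.07 at 150 pM, and 0.20 and -0.02 at 15 pM. With the main scaling the sets of 40, 24 and 17 had medians of 0.32, -0.17 and 0.48 at 150 pM. At 15 pM they were 0.28, -0.31 and 0.65. The difference was above 0 for 76 members at 150 pM, beside 49.5% of tested genes, and for 67 at 15 pM, beside 50%.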

How the data were processed

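Raw counts per gene for 15 libraries were deposited by the authors, together with RPKM values (counts relative to gene length and library total). Per the labels' protocols, libraries were made with the TruSeq RNA kit v2, which does not mark strand. Per the submitters' processing notes, CASAVA 1.8.2, STAR 2.4.1d and featureCounts 1.4.6-p4 were used. Genome build, annotation and strand setting: not given in the sources used here. Near-identical gene copies and overlapping genes are therefore uncertain. The deposited RPKM values served only to recover gene lengths: 100% of 3936 genes gave a single length when library totals were taken as repeated down the rows, and 0% when each column was divided by its own total.

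Groups came from the treatment labels, and replicates were numbered in accession order. CPM were computed from the counts with edgeR 4.0.16 in R 4.3.3, using TMM factors from 0.818 to 1.21. Genes were kept by filterByExpr (minimum count 10, minimum total 15), leaving 18253. One quasi-likelihood fit over all 15 samples gave the 3 comparisons, with Benjamini-Hochberg adjustment over all tested genes and a threshold of 0.05. The standard errors (SE) of its fold changes were derived from that test. Each is the size of the log2 fold change over the square root of the test's F statistic. DESeq2 1.42.0 was an alternative. Other alternatives changed the scaling, the filter, the list size, the ranking measure and the samples included. The factors from all deposited rows were added as an alternative after the data were seen. The edgeR fit was tested on simulated counts with changes of known size between the doses. That simulation gave a gene the same spread in every group, whereas the real 15 pM samples were more variable than the others. No libraries were duplicates: the lowest chi-square per degree of freedom between libraries of 1 group was 24.8. Intervals for shares are 95% Wilson intervals and cover counting error only.

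The members and lists were chosen with earlier results of these data known. Identifiers printed are the 10 leading members, members called between doses, and those with the largest or smallest coefficient of variation in DMSO or the largest at either dose. Marker gene lists were not used, since 0 identifiers could be paired with names.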

Additional observations from a re-analysis of the deposited data

Results flagged for a closer look

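A sample was taken as far from the others of its group where its gap to the nearest exceeded Dixon's 95% limit, which chance exceeds in about 1 group in 20. Of 66 groups examined, 8 held such a sample. The groups share libraries and are not independent. Some are levels of members named for their large coefficient of variation, such as Nfu_g_1_014314, where a far sample is favoured by the choice. The count is therefore not read against chance. Replicate 4 of the 15 pM group had a rank correlation of 0.513 with the DMSO order (next lowest 0.756) and 71 members among its own 100 leading genes (next lowest 84). Replicate 2 of the 150 pM group had a rank correlation of 0.743 (next lowest 0.892) and 82 members among its own 100 (next lowest 89). Replicate 5 of DMSO needed 263 genes for 50% of its counts (next highest 170). Nfu_g_1_022498 stood at 20699 CPM in replicate 2 of DMSO (next highest 12530). Nfu_g_1_014314 stood at 5435 CPM in replicate 3 of DMSO (next highest 89.5) and at 2456 CPM in replicate 2 of the 150 pM group (next highest 497). What sets these libraries apart was not tested.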

How the results depend on the processing

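The same 100 members were chosen with DESeq2 size factors, with totals alone and with factors from all deposited rows, 98 with the median in place of the mean, 96 to 99 with 1 DMSO sample left out, and 55 per gene length. With 20, 50 and 200 genes the DMSO share was 29.5%, 36.5% and 51.1% and the 150 pM share 27.4%, 35.6% and 52.0%, and with 20 genes the 15 pM share was 23.6%. The own-list difference of 15 pM from DMSO turned to 3.05 points, and that of 150 pM from 15 pM to -2.93 points, without replicates 1 and 4 of the 15 pM group (exact p = 0.250 for both). These replicates had the lowest shares of their group, so nothing is read from that p. The difference of 150 pM from DMSO turned to -1.78 points with 20 genes and -0.649 with 50. Leaving out 1 sample gave -5.36 to -0.360 points for 15 pM against DMSO, -1.17 to 1.09 for 150 pM against DMSO, with a negative sign without replicate 5 of DMSO (-1.17) or replicates 3 (-0.940) or 5 (-0.115) of the 150 pM group, and 0.473 to 5.47 for 150 pM against 15 pM. Every p over these settings was at least 0.246.

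DESeq2 called 3 members in each comparison. The share of tested genes was 8.34% at 15 pM against DMSO, 3.48% at 150 pM against DMSO and 9.28% between the doses. At 15 pM against DMSO, leaving out 1 sample gave 0 to 5 calls, beside 0.638% to 4.32% of tested genes. Without replicate 4 of the 15 pM group there were 5, beside 4.32%, and without its replicates 1 and 4 there were 4, beside 3.27%. With only the 2 groups compared, 2 members were called at 150 pM against DMSO, beside 2.58% of tested genes. At 150 pM against 15 pM the same setting gave 0, beside 0.248%. There no filter also gave 0, beside 0.875%, and leaving out 1 sample gave 0 to 1, beside 0.189% to 3.37%. That call was lost without DMSO replicate 2, 4 or 5, 15 pM replicate 2, 3 or 5, or 150 pM replicate 1, 2, 3 or 5. Some title numbers are shared by DMSO and 15 pM. Correlations of same-numbered samples, taken relative to their group means, were 0.33, -0.27, -0.16, 0.12 and -0.01. No DMSO sample correlated best with the 15 pM sample of its own number. These correlations cannot show whether same-numbered samples were handled together. With the number as a replicate block, 0 members and 2 of all tested genes were called. Of 980 fold changes of named members under an alternative, 941 kept direction and call, 12 lost the call, 2 gained it and 25 changed sign, none of the 25 in a called comparison. The main fit called only Nfu_g_1_022922, between the doses, so nearly all of the 941 were uncalled results that stayed uncalled. The 12 lost calls were all those of this gene, out of its 23 alternatives. The causes were not tested.

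The sign changes are given as log2 fold changes. Without replicates 1 and 4 of the 15 pM group, 150 pM against 15 pM was -0.23 for Nfu_g_1_023149, -0.30 for Nfu_g_1_018490 and -0.29 for Nfu_g_1_013298, and 15 pM against DMSO was 0.44 for Nfu_g_1_013186. With the replicate block, 15 pM against DMSO was 1.03 for Nfu_g_1_014314. Leaving out 1 sample gave, at 15 pM against DMSO, -3.07 to 1.53 for Nfu_g_1_014314 and -0.62 to 0.10 for Nfu_g_1_013186. At 150 pM against DMSO it gave -0.17 to 0.043 for Nfu_g_1_001437, -0.41 to 0.041 for Nfu_g_1_022498, -0.17 to 0.12 for Nfu_g_1_014183 and -2.82 to 3.40 for Nfu_g_1_014314. At 150 pM against 15 pM it gave -0.35 to 0.13 for Nfu_g_1_002091, -0.027 to 0.18 for Nfu_g_1_019825, -0.36 to 0.056 for Nfu_g_1_007569, -0.055 to 2.19 for Nfu_g_1_014314 and -0.51 to 0.20 for Nfu_g_1_013186.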
